A study of Mus musculus with 8 samples.

Results

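The response of macrophages to lipopolysaccharide (LPS) and interferon-γ (INF-γ) in the absence of the GPER1 agonist G-1 was read from the library of LPS/INF macrophages and the library of M0 macrophages. The members are the genes with at least 20 counts in whichever of these 2 libraries held more, which were 11427 of the 22173 gene symbols, and they are called measured genes here. Both groups were primary macrophages of wild-type mice, grown from the marrow of femur and tibia for 7 days in medium with 20% supernatant of L929 fibroblasts, a source of the growth factor M-CSF. LPS/INF macrophages then had 100 ng/ml LPS and 20 ng/ml INF-γ for 48 h. M0 macrophages are labelled as differentiated only, and neither a vehicle nor the time they stayed in culture is stated. The age and sex of the donor mice are not given either. RNA of 3 samples of each group was pooled into 1 library, so there is no replicate check, and every difference below is one between these libraries. The study's methods list the M0 pair and the LPS/INF pair under different sequencing numbers, and any difference between those sets cannot be told apart from the treatment. The series holds 8 libraries in all, and the same pair of states cultured with 10 μmol/L G-1 served for comparison.

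Classical activation begins at the membrane, where CD14 and MD-2 hand LPS to Toll-like receptor 4. The adaptors MyD88 and TRIF then switch on NF-κB, AP-1 and IRF3, which turn on genes of cytokines, chemokines and interferon-β. INF-γ acts through the receptor chains IFNGR1 and IFNGR2 and the kinases JAK1 and JAK2, which switch on IRF1, the MHC class II activator CIITA and guanylate-binding proteins. Activated mouse macrophages make nitric oxide and itaconate, burn glucose by glycolysis and release IL-1β, IL-6, IL-12 and TNF. Resident macrophages depend on M-CSF and carry receptors that clear debris, lipoproteins and dying cells.

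The deposited counts summed to 39218495 in the LPS/INF library and to 35027179 in the M0 library, within the range of 35027179 to 40671596 of all libraries. Folds were taken after TMM scaling, a scaling that assumes no change in most genes. A 95% interval holds the counting error of both libraries only. For a gene at 0 counts in one library the fold was computed against a floor of 3 counts in that library and is given as a bound. "At least" before such a fold refers to that floor. The 95% interval reaches nearer to no difference, for Il12a to 1310-fold, against a bound of 1611-fold. Among measured genes, 1919 (16.8%) were at least 2-fold higher in LPS/INF and 1991 (17.4%) at least 2-fold lower, and the median log2 fold of all was 0.01. These shares of 16.8% and 17.4% are the background for the list counts of this pair below. At 10-fold, 426 genes (3.73%) were higher and 388 (3.40%) lower. The 426 genes summed to 4314575 counts in LPS/INF, against 77345 counts in M0, and the 388 genes to 90146 counts in LPS/INF, against 2534884 counts in M0. In bulk RNA, fewer cells of a type and less RNA per cell cannot be told apart.

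The labels were set against markers first. Macrophage genes such as Adgre1, Csf1r and Lyz2 were abundant in both libraries, and all 20 general macrophage markers were measured. Of these, 2 were at least 2-fold higher in LPS/INF and 13 at least 2-fold lower, with a median log2 fold of -1.58. Cd3e of T cells, Ms4a1 of B cells, Epcam of epithelium and Ly6g of neutrophils had 0 counts in both, although other genes of their lists were counted. Markers of T and NK cells summed to 1.26 CPM (counts scaled to the library total) in LPS/INF and 41.7 CPM in M0, nearly all of it Cd4, and those of B cells to 1.56 CPM in LPS/INF and 11.2 CPM in M0, with 2 of 2 measured lower. Neutrophil markers summed to 379 CPM in LPS/INF and 170.4 CPM in M0, with 3 of 7 measured higher and 3 lower. Those of dendritic cells summed to 839.8 CPM in LPS/INF and 203 CPM in M0, with 3 of 3 measured higher, mostly Bst2, which interferons also induce. Fibroblast and matrix markers summed to 112 CPM in LPS/INF and to 16.3 CPM in M0, while Col3a1, Pdgfra and Thy1 were at 0 in both. Of the 10 measured of 14, 6 were at least 2-fold higher in LPS/INF and 3 at least 2-fold lower, and the part of all these markers in the results was not tested.

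Several interferon and MHC class II genes stood higher in the M0 library than in M0 with G-1 and in IL4, by amounts that differed. H2-Aa, an MHC class II chain, had 47 counts in the LPS/INF library and 4373 counts in the M0 library, while M0 with G-1 had 124 counts of it and the IL4 library 79 counts. Cxcl10, an interferon-induced chemokine, had 12532 counts in LPS/INF and 1251 counts in M0, against 0 counts in M0 with G-1 and 152 counts in IL4. The antiviral interferon-stimulated genes together held 13267 CPM in LPS/INF, 7095 CPM in M0, 2875 CPM in M0 with G-1 and 4909 CPM in IL4. The MHC class II list held 2909 CPM in LPS/INF, 5815 CPM in M0, 4755 CPM in M0 with G-1 and 3736 CPM in IL4. The paper reports that genes lowered by G-1 in M0 macrophages were enriched for the response to interferon-β. That result came from the same M0 and M0 with G-1 libraries, so it is not separate evidence. Folds of interferon and MHC class II genes below are therefore measured against an M0 library in which both lists stood above their level in M0 with G-1. The pair with G-1 is given for the lists of these genes.

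**Figure D1:**
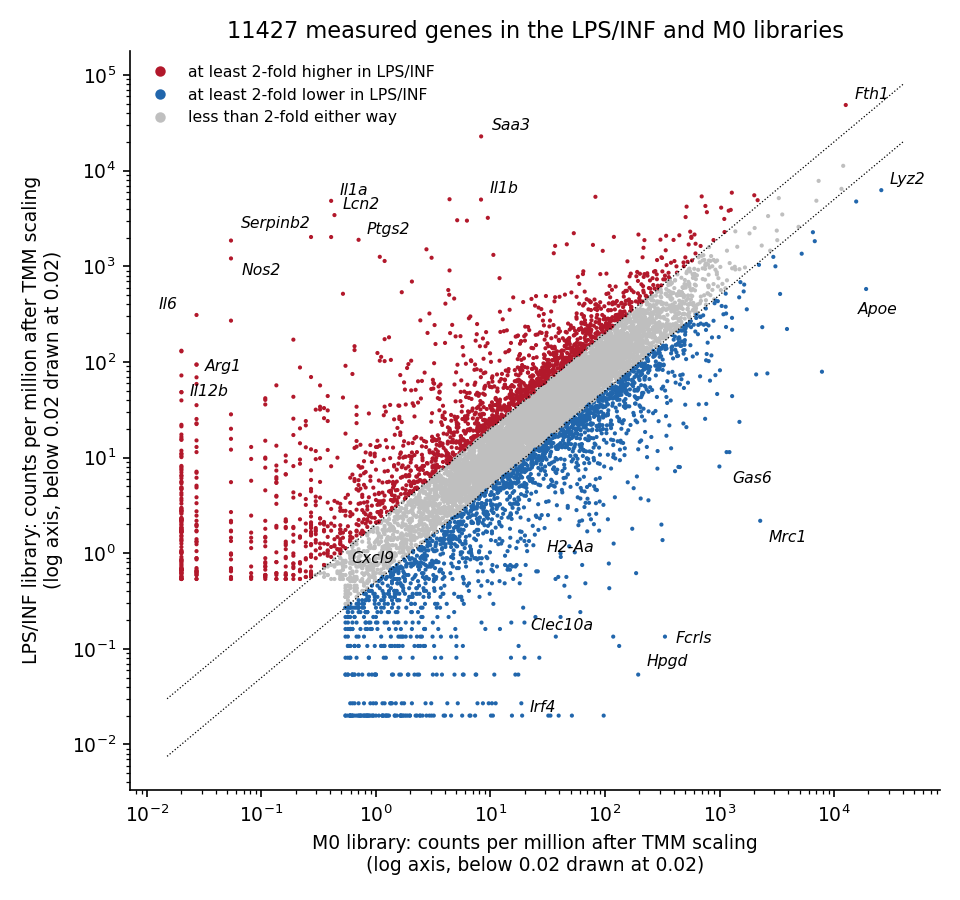
CPM after TMM scaling of every measured gene in the LPS/INF library (y axis) against the M0 library (x axis). Both axes are log axes, with levels under 0.02 CPM drawn at 0.02. Points far above the diagonal include Nos2, Il1a and Saa3, and points far below it include Mrc1, Hpgd and Fcrls.

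The defining markers of classical activation all stood on the LPS/INF side. Nos2 (chr11:78920787-78960226, GRCm38.p6), which makes nitric oxide from arginine, had 44992 counts in LPS/INF and 2 counts in M0 (22301-fold higher, 95% interval 6173 to 184151). Il6 (chr5:30013114-30019975), the pyrogenic cytokine of the acute phase, stood at 11531 counts in LPS/INF, against 1 count in M0 (11431-fold higher, 95% interval 2051 to 451537). Il12b, the p40 chain shared by IL-12 and IL-23, had 2689 counts in LPS/INF, against 0 counts in M0, and was at least 889-fold higher. Il1b, the cytokine that caspase-1 releases, had 185721 counts in LPS/INF and 305 counts in M0 (604-fold higher, 95% interval 539.5 to 678). Per transcript length, Il1b stood at 8100 TPM, a level scaled by length, in LPS/INF, against 14.7 TPM in M0.

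Beyond these markers, the largest folds among genes with at least 100 counts in one library took in enzymes, inhibitors and transporters. Serpinb2, an inhibitor of plasminogen activators, stood at 69223 counts in LPS/INF, against 2 counts in M0 (34311-fold higher, 95% interval 9498 to 283324). Inhba, which encodes the activin A subunit, had 75395 counts in LPS/INF, against 10 counts in M0, and was 7474-fold higher (95% interval 4064 to 15587). Adora2a, the adenosine receptor that raises cAMP, had 3500 counts in LPS/INF and 1 count in M0 (3470-fold higher, 95% interval 622 to 137082). Each of these genes was near 0 in M0, so the lower bound of the interval is the firmer figure. Slc1a2, a glutamate transporter, stood at 3483 counts in LPS/INF, against 1 count in M0 (3453-fold higher, 95% interval 619 to 136416). Pde10a, a phosphodiesterase of cyclic nucleotides, had 2187 counts in LPS/INF, against 1 count in M0, and was 2168-fold higher (95% interval 389 to 85671).

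The 15 largest folds in the other direction took in receptors, enzymes, a carrier and the transcription factor Irf4. Hpgd (chr8:56294552-56321046), the dehydrogenase that inactivates prostaglandins, had 2 counts in LPS/INF and 7211 counts in M0 (3637-fold lower, 95% interval 1006 to 30038). Fcrls, an Fc receptor-like scavenger protein, stood at 5 counts in LPS/INF, against 12342 counts in M0 (2490-fold lower, 95% interval 1067 to 7670). Mrc1 (chr2:14229414-14332023), the mannose receptor, had 81 counts in LPS/INF, against 83675 counts in M0, and was 1042-fold lower (95% interval 838 to 1312). All of these were abundant in M0 and close to absent in LPS/INF. Gprc5c, an orphan receptor, had 0 counts in LPS/INF and 3594 counts in M0 (at least 1208-fold lower). Slco2b1, an organic anion carrier, stood at 0 counts in LPS/INF, against 1897 counts in M0 (at least 638-fold lower). Gpr34, a receptor of lysophosphatidylserine, had 0 counts in LPS/INF, against 1181 counts in M0, and was at least 397-fold lower.

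The cytokines of the IL-1, IL-6, IL-12 and TNF families had 25 of 35 measured, with 16 at least 2-fold higher in LPS/INF, 5 at least 2-fold lower and a median log2 fold of 3.02. Il1a, another cytokine of the IL-1 family, had 180100 counts in LPS/INF and 15 counts in M0 (11902-fold higher, 95% interval 7216 to 21267). Il12a, the p35 chain of IL-12, stood at 4875 counts in LPS/INF, against 0 counts in M0 (at least 1611-fold higher). Il23a, which pairs with p40 to form IL-23, had 104 counts in LPS/INF, against 0 counts in M0, and was at least 34.4-fold higher. All subunits of IL-12 and IL-23 were thus counted in LPS/INF and at 0 counts in M0. Tnf, the first cytokine of the LPS response, had 17126 counts in LPS/INF and 178 counts in M0 (95.4-fold higher, 95% interval 82.3 to 111). Il27, a member of the IL-12 family, stood at 495 counts in LPS/INF, against 40 counts in M0 (12.3-fold higher), whereas its partner Ebi3 had 4062 counts in LPS/INF, against 3848 counts in M0, and was 1.05-fold higher. Osm, a relative of IL-6, had 2240 counts in LPS/INF and 355 counts in M0 (6.26-fold higher). Il1rn, the natural antagonist of the IL-1 receptor, stood at 49035 counts in LPS/INF, against 391 counts in M0 (124-fold higher, 95% interval 113 to 138), so an agonist and its antagonist were high in the same library. The 5 members on the other side were Tnfsf10, Tnfsf13, Tnfsf14, Il15 and Il10.

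The lower cytokines included a lymphocyte survival factor, a death ligand and an anti-inflammatory cytokine. Il15, a survival factor of NK cells, had 348 counts in LPS/INF, against 1039 counts in M0, and was 3.01-fold lower. Tnfsf10, the death ligand TRAIL, had 46 counts in LPS/INF and 212 counts in M0 (4.65-fold lower). Il10, the anti-inflammatory cytokine, stood at 55 counts in LPS/INF, against 181 counts in M0 (3.32-fold lower, 95% interval 2.44 to 4.58). Tgfb1, an immunosuppressive cytokine, had 12718 counts in LPS/INF, against 22678 counts in M0, and was 1.8-fold lower, short of 2-fold. Ifnb1 and Ifng had 0 counts in both libraries at 48 h.

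Among colony-stimulating factors and their receptors, 9 of 11 were measured, and 4 of those were at least 2-fold higher in LPS/INF and 2 at least 2-fold lower (median log2 fold 0.50). Csf3, the granulocyte factor G-CSF, had 4813 counts in LPS/INF and 0 counts in M0 (at least 1590-fold higher). Csf2, which encodes GM-CSF, stood at 209 counts in LPS/INF, against 0 counts in M0 (at least 69.1-fold higher). Csf1, the gene of M-CSF, had 6886 counts in LPS/INF, against 183 counts in M0, and was 37.3-fold higher (95% interval 32.2 to 43.4). The ligand Csf1 was higher while its receptor Csf1r, the growth receptor of macrophages, had 68207 counts in LPS/INF and 250608 counts in M0 (3.71-fold lower, 95% interval 3.68 to 3.74). Csf2ra, a chain of the GM-CSF receptor, stood at 11597 counts in LPS/INF, against 4750 counts in M0 (2.42-fold higher).

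Of 19 CC chemokine ligands, 13 were measured, 8 of them at least 2-fold higher in LPS/INF and 3 at least 2-fold lower, with a median log2 fold of 2.35. Ccl5, which draws T cells and monocytes, had 112889 counts in LPS/INF, against 189 counts in M0, and was 592-fold higher (95% interval 513 to 687), and reached 12549 TPM in LPS/INF, against 23.3 TPM in M0. Ccl2, the main attractant of CCR2 monocytes, had 45746 counts in LPS/INF and 113 counts in M0 (401-fold higher, 95% interval 334 to 487). Ccl7, another ligand of CCR2, stood at 19945 counts in LPS/INF, against 62 counts in M0 (319-fold higher). Ccl2, Ccl5 and Ccl7 were all on the higher side. Ccl3, a ligand of CCR1, had 63256 counts in LPS/INF, against 1714 counts in M0, and was 36.6-fold higher, and Ccl4, a close relative, had 9285 counts in LPS/INF and 282 counts in M0 (32.6-fold higher). Ccl6, made constitutively by macrophages, stood at 808 counts in LPS/INF, against 13480 counts in M0 (16.8-fold lower), and Ccl24, an eosinophil attractant tied to IL-4, had 0 counts in LPS/INF, against 144 counts in M0, and was at least 48.4-fold lower.

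The CXC chemokine ligands had 11 of 15 measured, with 7 at least 2-fold higher in LPS/INF, 2 at least 2-fold lower and a median log2 fold of 2.31. Cxcl1, a neutrophil attractant acting on CXCR2, had 10062 counts in LPS/INF and 2 counts in M0 (4987-fold higher, 95% interval 1380 to 41188). Cxcl3, a close relative, stood at 75329 counts in LPS/INF, against 15 counts in M0 (4978-fold higher, 95% interval 3018 to 8895). Cxcl2, a ligand of CXCR2, had 56049 counts in LPS/INF, against 102 counts in M0, and was 545-fold higher, and Cxcl5, another CXCR2 ligand, had 1313 counts in LPS/INF and 1 count in M0 (1302-fold higher, 95% interval 233 to 51449). The remaining ligands named here attract T cells and are induced by interferons. Cxcl10, an attractant of CXCR3 T cells, stood at 12532 counts in LPS/INF, against 1251 counts in M0 (9.93-fold higher, 95% interval 9.37 to 10.5). In the pair with G-1, Cxcl10 had 4033 counts in LPS/INF with G-1, against 0 counts in M0 with G-1, which was at least 1429-fold higher. Cxcl9, a further CXCR3 ligand that INF-γ induces strongly in mouse macrophages, had 25 counts in LPS/INF, against 19 counts in M0, and was 1.30-fold higher (95% interval 0.690 to 2.51), an interval that includes no difference. In the pair with G-1, Cxcl9 had 11 counts in LPS/INF with G-1 and 0 counts in M0 with G-1, too few to be measured.

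Among chemokine and chemoattractant receptors, 17 of 22 were measured, and 6 of those were at least 2-fold higher in LPS/INF and 8 at least 2-fold lower (median log2 fold -0.51). Fpr1, the receptor of bacterial formyl peptides, had 21049 counts in LPS/INF and 158 counts in M0 (132-fold higher, 95% interval 113 to 155). Fpr2, its relative, stood at 6545 counts in LPS/INF, against 317 counts in M0 (20.5-fold higher). Ccrl2, which presents chemerin, had 7809 counts in LPS/INF, against 484 counts in M0, and was 16.0-fold higher. The higher receptors also took in Ccr7 and Ccr1, and the lower ones C5ar2, which binds C5a, and Ptafr, of platelet-activating factor. Ccr2, the receptor by which monocytes leave the marrow, had 7 counts in LPS/INF and 562 counts in M0 (81.0-fold lower). Cxcr4, which holds cells in the marrow, stood at 543 counts in LPS/INF, against 7416 counts in M0 (13.8-fold lower).

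Promoters of the chemokines and interferon genes are shown because both response programs have well known sites in them. The windows run from 250 bases before to 50 bases after the RefSeq start on GRCm38.p6. Capitals mark matches to the NF-κB motif GGGANTTTC in Il6 and Cxcl1, to the interferon-stimulated response element (ISRE) GAAANNGAA in Isg15 and Ifit1, to the STAT motif (GAS) TTCNNNGAA in Socs3, and to both ISRE and NF-κB in Cxcl9, each searched on both strands.
Il6: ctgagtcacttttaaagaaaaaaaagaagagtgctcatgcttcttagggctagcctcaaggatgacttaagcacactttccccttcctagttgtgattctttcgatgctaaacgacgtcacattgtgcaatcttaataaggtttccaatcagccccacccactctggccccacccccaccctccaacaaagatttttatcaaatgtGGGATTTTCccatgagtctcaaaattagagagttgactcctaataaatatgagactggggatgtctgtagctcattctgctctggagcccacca
Cxcl1: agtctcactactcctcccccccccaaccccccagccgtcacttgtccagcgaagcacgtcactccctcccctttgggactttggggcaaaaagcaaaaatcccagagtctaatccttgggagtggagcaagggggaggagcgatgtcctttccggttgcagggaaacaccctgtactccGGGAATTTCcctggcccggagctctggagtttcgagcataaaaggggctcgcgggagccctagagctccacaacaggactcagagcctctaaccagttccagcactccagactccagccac
Isg15: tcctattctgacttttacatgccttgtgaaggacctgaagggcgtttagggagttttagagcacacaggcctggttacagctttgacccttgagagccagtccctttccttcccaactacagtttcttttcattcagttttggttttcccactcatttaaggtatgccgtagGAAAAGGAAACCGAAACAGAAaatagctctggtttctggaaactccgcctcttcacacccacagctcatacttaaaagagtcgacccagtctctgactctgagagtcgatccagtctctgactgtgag
Ifit1: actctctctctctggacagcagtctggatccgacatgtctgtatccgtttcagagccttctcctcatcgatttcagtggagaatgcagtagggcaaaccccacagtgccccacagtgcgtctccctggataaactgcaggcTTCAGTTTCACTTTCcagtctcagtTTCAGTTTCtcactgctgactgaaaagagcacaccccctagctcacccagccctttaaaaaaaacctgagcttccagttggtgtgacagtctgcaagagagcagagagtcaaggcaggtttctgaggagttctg
Socs3: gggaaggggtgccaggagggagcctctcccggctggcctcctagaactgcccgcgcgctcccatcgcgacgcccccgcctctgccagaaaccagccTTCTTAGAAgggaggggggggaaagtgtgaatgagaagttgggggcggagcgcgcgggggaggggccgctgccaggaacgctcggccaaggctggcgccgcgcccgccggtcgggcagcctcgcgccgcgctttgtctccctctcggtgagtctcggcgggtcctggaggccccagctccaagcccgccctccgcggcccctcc
Cxcl9: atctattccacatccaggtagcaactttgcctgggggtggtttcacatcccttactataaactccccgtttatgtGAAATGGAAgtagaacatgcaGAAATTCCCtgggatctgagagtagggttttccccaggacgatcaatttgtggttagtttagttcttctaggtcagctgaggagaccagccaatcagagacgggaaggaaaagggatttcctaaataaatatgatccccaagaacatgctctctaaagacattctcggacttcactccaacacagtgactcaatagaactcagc
They lie at chr5:30012864-30013163 on the plus strand (Il6), chr5:90890995-90891294 on the plus strand (Cxcl1), chr4:156200769-156201068 on the minus strand (Isg15), chr19:34640639-34640938 on the plus strand (Ifit1), chr11:117969317-117969616 on the minus strand (Socs3) and chr5:92328030-92328329 on the minus strand (Cxcl9). The NF-κB letters began 44 bases before the start in Il6 and 71 bases before it in Cxcl1. Isg15 held 3 overlapping ISRE matches and Ifit1 held 3 on the other strand. The NF-κB motif was in 1.11% of all 32851 windows, in 1.04% of windows of measured genes, in 1.45% of windows of genes at least 2-fold higher, in 3.15% at 10-fold, and in 1.10% of windows of genes at least 2-fold lower. Among CXC ligands it was in 4 of 9 windows (44.4%), among CC ligands in 0 of 11 and among the M1 cytokines in 1 of 23. The ISRE was in 8.56% of all windows, in 7.25% of windows of measured genes, in 50.8% of the 63 windows of interferon-stimulated antiviral genes and in 9 of 12 windows (75%) of the GTPase genes. The STAT motif was in 8.30% of all windows, in 6.84% of windows of measured genes, in 7.13% of those at least 2-fold higher and in 8.47% at 10-fold. The NF-κB and ISRE matches overlapped in 4 windows. Cxcl9 holds the letters of both motifs and had a fold of 1.30 in this pair, while Isg15 with ISRE letters alone was 12.8-fold higher. A match is a description of letters, not of binding.

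Of 30 Toll-like receptors, coreceptors and adaptors, 28 were measured, 7 of them at least 2-fold higher in LPS/INF and 9 at least 2-fold lower, with a median log2 fold of 0.13. Cd14, the LPS coreceptor, had 121877 counts in LPS/INF, against 18668 counts in M0, and was 6.47-fold higher (95% interval 6.37 to 6.57). Tlr4, the LPS receptor, had 6238 counts in LPS/INF and 6289 counts in M0 (1.02-fold lower). Ly96, which encodes MD-2, stood at 551 counts in LPS/INF, against 713 counts in M0 (1.31-fold lower). Of Cd14, Tlr4 and Ly96, Cd14 alone passed 2-fold. Lbp, the LPS-binding protein, had 21 counts in LPS/INF and 124 counts in M0 (5.96-fold lower). Receptors of nucleic acids in endosomes did not share a direction. Tlr9, for DNA, had 84 counts in LPS/INF, against 2782 counts in M0, and was 33.4-fold lower, and Tlr8, for RNA, had 2168 counts in LPS/INF and 16642 counts in M0 (7.74-fold lower). Tlr3, for double-stranded RNA, stood at 1150 counts in LPS/INF, against 585 counts in M0 (1.95-fold higher), just short of 2-fold. Tlr5, the flagellin receptor, had 0 counts in LPS/INF, against 387 counts in M0, and was at least 130.1-fold lower. Irak3, an inhibitory kinase of the MyD88 path, had 11997 counts in LPS/INF and 2087 counts in M0 (5.70-fold higher), and Irak2, its activating relative, stood at 6342 counts in LPS/INF, against 1459 counts in M0 (4.31-fold higher).

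The NF-κB subunits had 5 of 5 measured, with 1 at least 2-fold higher in LPS/INF, 0 at least 2-fold lower and a median log2 fold of 0.61. Nfkb2, the p100 precursor, was the subunit past 2-fold and had 10881 counts in LPS/INF, against 5148 counts in M0, and was 2.10-fold higher. Rela, the main activating subunit, had 6995 counts in LPS/INF and 6450 counts in M0 (1.08-fold higher). The inhibitors of these subunits are targets of NF-κB themselves. Among feedback inhibitors of NF-κB and of cytokine mRNA, 18 of 18 were measured, and 9 of those were at least 2-fold higher in LPS/INF and 1 at least 2-fold lower (median log2 fold 0.83). Tnfaip3, the ubiquitin editor A20, stood at 11317 counts in LPS/INF, against 977 counts in M0 (11.5-fold higher, 95% interval 10.8 to 12.3). Nfkbia, which encodes IκBα, had 15816 counts in LPS/INF, against 2767 counts in M0, and was 5.67-fold higher. Nfkbiz, needed for Il6 transcription, had 7480 counts in LPS/INF and 1033 counts in M0 (7.18-fold higher). Trib3, a pseudokinase also induced by ATF4, had the largest fold of the list and stood at 3843 counts in LPS/INF, against 40 counts in M0 (95.2-fold higher). Zfp36, the decay factor tristetraprolin, was the member on the lower side and had 2180 counts in LPS/INF, against 5668 counts in M0, and was 2.62-fold lower.

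Of 17 SOCS and other cytokine inhibitors, 17 were measured, 8 of them at least 2-fold higher in LPS/INF and 4 at least 2-fold lower, with a median log2 fold of 0.34. Socs3, the brake of IL-6 signalling, had 28012 counts in LPS/INF and 444 counts in M0 (62.5-fold higher, 95% interval 56.9 to 68.8). Socs1, the brake of JAK kinases at the interferon receptors, stood at 3534 counts in LPS/INF, against 71 counts in M0 (49.3-fold higher, 95% interval 39.0 to 63.3). Cish, a SOCS family inhibitor of STAT5, had 545 counts in LPS/INF, against 101 counts in M0, and was 5.35-fold higher. Socs3, Socs1 and Cish were thus higher, and Socs6, a constitutive member of the family, had 806 counts in LPS/INF and 3837 counts in M0 (4.80-fold lower). The DUSP phosphatases of MAP kinases had 15 of 15 measured, with 8 at least 2-fold higher in LPS/INF, 2 at least 2-fold lower and a median log2 fold of 1.03. Dusp16, a phosphatase of JNK, stood at 6910 counts in LPS/INF, against 202 counts in M0 (33.9-fold higher), and Dusp1, which acts on p38, had 5179 counts in LPS/INF, against 871 counts in M0, and was 5.89-fold higher. Among AP-1 and immediate-early factors, 17 of 20 were measured, and 9 of those were at least 2-fold higher in LPS/INF and 1 at least 2-fold lower (median log2 fold 1.11). Fos, an early gene that is transient after stimulation, had 479 counts in LPS/INF and 2303 counts in M0 (4.85-fold lower), while Ier3, an NF-κB-induced survival gene, stood at 17862 counts in LPS/INF, against 2084 counts in M0 (8.5-fold higher).

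Of 66 antiviral interferon-stimulated genes, 61 were measured, 36 of them at least 2-fold higher in LPS/INF and 2 at least 2-fold lower, with a median log2 fold of 1.17. Isg15, the ubiquitin-like antiviral protein, had 13289 counts in LPS/INF, against 1027 counts in M0, and was 12.8-fold higher (95% interval 12 to 13.7). Oasl1, a regulator of Irf7 translation, had 6205 counts in LPS/INF and 274 counts in M0 (22.4-fold higher). Usp18, which removes ISG15 and damps the interferon receptor, stood at 7022 counts in LPS/INF, against 642 counts in M0 (10.8-fold higher). With G-1 the folds were 367 for Oasl1 and 78.1 for Usp18. Several of the best known antiviral genes had smaller folds. Ifit1, which binds viral RNA, had 9611 counts in LPS/INF, against 2299 counts in M0, and was 4.14-fold higher, Rsad2, the antiviral enzyme viperin, had 17639 counts in LPS/INF and 4080 counts in M0 (4.29-fold higher), and Ifit3, a partner of Ifit1, stood at 6530 counts in LPS/INF, against 3398 counts in M0 (1.91-fold higher). Slfn4, a myeloid Schlafen gene, had 1267 counts in LPS/INF, against 12 counts in M0, and was 105-fold higher, with the reservation that Schlafen copies share sequence. Ch25h, which makes 25-hydroxycholesterol, had 451 counts in LPS/INF and 2 counts in M0 (224-fold higher, 95% interval 61.5 to 1852). Ifitm2 and Ifi207 were the members at least 2-fold lower, and both belong to families of close copies.

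The interferon-inducible GTPases of the GBP and IRG families had 19 of 23 measured, with 7 at least 2-fold higher in LPS/INF, 3 at least 2-fold lower and a median log2 fold of 0.74. Gbp2, a GTPase that coats bacteria, stood at 11588 counts in LPS/INF, against 3154 counts in M0 (3.64-fold higher, 95% interval 3.50 to 3.79), against a fold of 120.0 with G-1. Gbp6, a further GBP, had 4216 counts in LPS/INF, against 41 counts in M0, and was 102-fold higher, and Gbp4, another GBP, had 307 counts in LPS/INF and 5 counts in M0 (60.9-fold higher). Reads of near-identical Gbp copies may be split between symbols. Of the immunity-related GTPases, Irgm1, a regulator of autophagy, stood at 7285 counts in LPS/INF, against 3849 counts in M0 (1.88-fold higher) and Igtp, the GTPase Irgm3, had 2435 counts in LPS/INF, against 1316 counts in M0, and was 1.83-fold higher. Iigp1, the GTPase Irga6, had 88 counts in LPS/INF and 298 counts in M0 (3.42-fold lower, 95% interval 2.68 to 4.38). The same genes in the pair with G-1 had 15 of 18 measured members higher by 2-fold or more and 2 lower by as much, with a median log2 fold of 4.55, where the background was 17.7% higher and 19.7% lower.

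Among IRF and STAT factors, 22 of 23 were measured, and 6 of those were at least 2-fold higher in LPS/INF and 4 at least 2-fold lower (median log2 fold -0.12). Irf7, the amplifier of type I interferon, stood at 54024 counts in LPS/INF, against 3527 counts in M0 (15.2-fold higher, 95% interval 14.7 to 15.7). Stat2, a factor of type I interferon receptors, had 9484 counts in LPS/INF, against 3757 counts in M0, and was 2.5-fold higher. Irf1, a factor that INF-γ induces early, had 2391 counts in LPS/INF and 3666 counts in M0 (1.55-fold lower, 95% interval 1.47 to 1.63). Irf1 had 4426 counts in LPS/INF with G-1 and 600 counts in M0 with G-1, and the list there had 11 of 21 measured members higher by 2-fold or more and 0 lower by as much, with a median log2 fold of 1.54. Irf4, the factor of alternative activation, stood at 1 count in LPS/INF, against 686 counts in M0 (692-fold lower, 95% interval 124 to 27372). Of 10 interferon receptors and JAK kinases, 10 were measured, 1 of them at least 2-fold higher in LPS/INF and 2 at least 2-fold lower, with a median log2 fold of 0.28. Ifngr1, the ligand-binding chain of the INF-γ receptor, had 1986 counts in LPS/INF, against 18035 counts in M0, and was 9.16-fold lower (95% interval 8.75 to 9.60). Ifngr2, the signalling chain, had 8400 counts in LPS/INF and 6660 counts in M0 (1.25-fold higher), and Jak2, the kinase bound to it, stood at 24344 counts in LPS/INF, against 2198 counts in M0 (11-fold higher, 95% interval 10.5 to 11.5). Of the genes of INF-γ reception, Ifngr1 was thus lower and Jak2 higher.

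**Figure D2:**
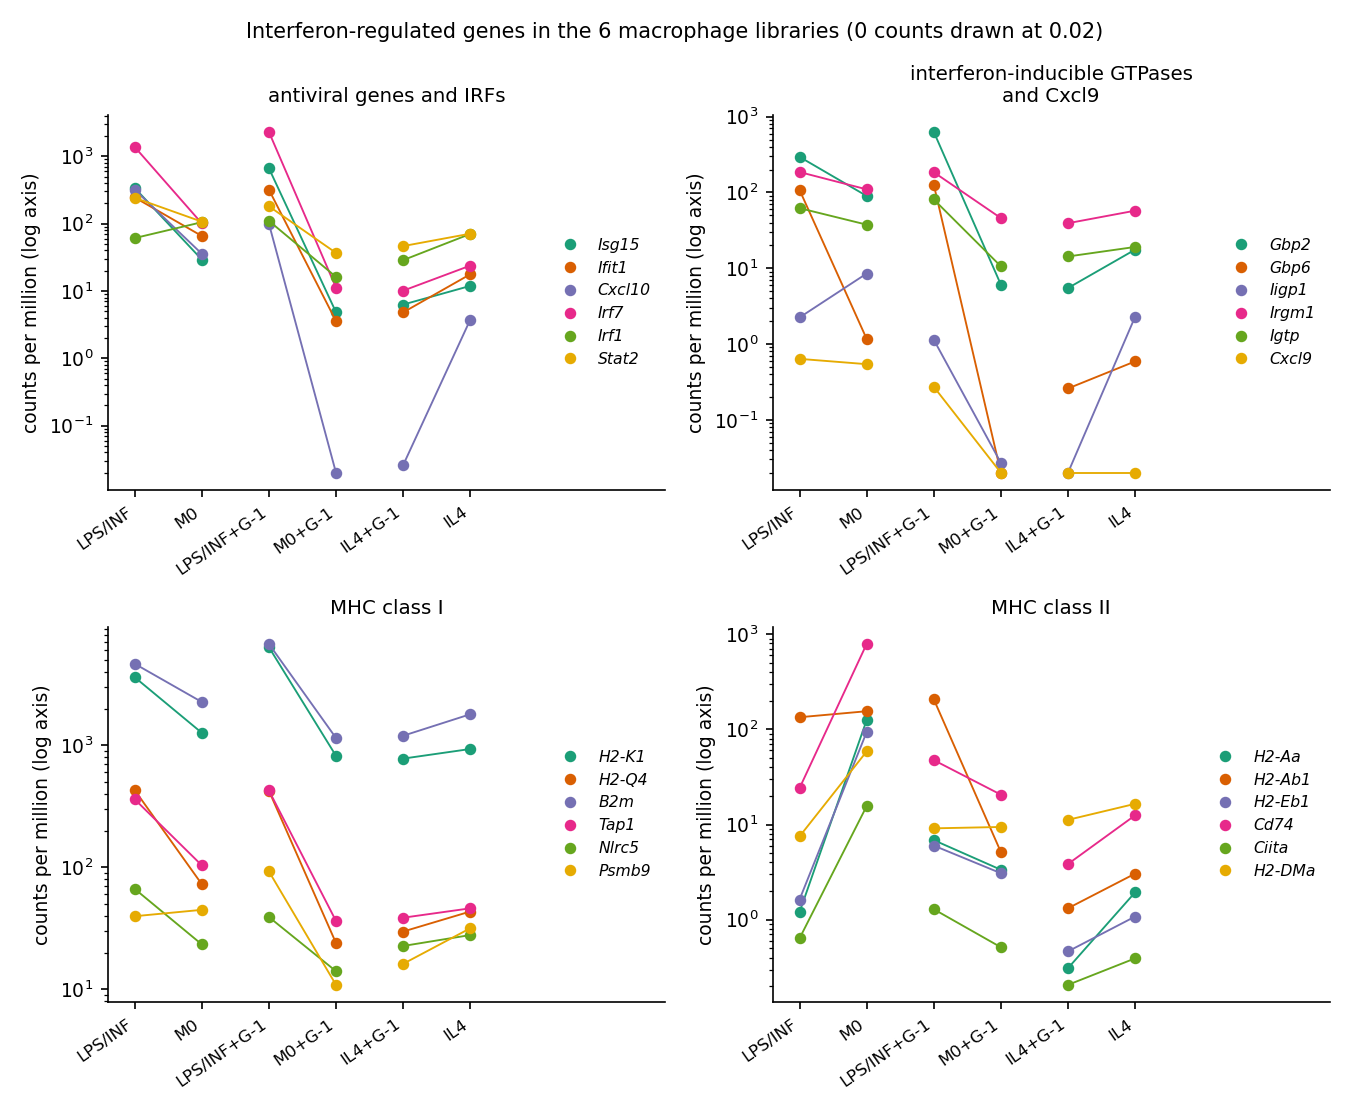
CPM of interferon-stimulated, MHC class II and related genes in the 6 macrophage libraries, in the order LPS/INF, M0, LPS/INF with G-1, M0 with G-1, IL4 with G-1 and IL4. The MHC class II genes H2-Aa and Cd74 peak in the M0 library, with 4373 and 27636 counts there.

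The MHC class I and immunoproteasome genes had 25 of 28 measured, with 17 at least 2-fold higher in LPS/INF, 0 at least 2-fold lower and a median log2 fold of 1.19. H2-K1, a classical class I heavy chain, had 142016 counts in LPS/INF, against 44401 counts in M0, and was 3.17-fold higher (95% interval 3.14 to 3.20). B2m, its light chain, had 182996 counts in LPS/INF and 79448 counts in M0 (2.28-fold higher). Tap1, the peptide pump, stood at 14205 counts in LPS/INF, against 3641 counts in M0 (3.87-fold higher). The heavy chain, light chain and pump were all higher, as was Nlrc5, the class I activator, which had 2616 counts in LPS/INF, against 821 counts in M0, and was 3.16-fold higher. H2-Q7, a nonclassical class I gene, had 496 counts in LPS/INF and 5 counts in M0 (98.3-fold higher), with the reservation that Q and T genes are near copies. Psmb9, an immunoproteasome subunit, stood at 1561 counts in LPS/INF, against 1572 counts in M0 (1.02-fold lower). In the pair with G-1 this list had 21 of 25 measured members higher by 2-fold or more and 0 lower by as much, with a median log2 fold of 2.59.

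Among MHC class II genes, 17 of 20 were measured, and 1 of those was at least 2-fold higher in LPS/INF and 7 at least 2-fold lower (median log2 fold -0.55). H2-Aa had 47 counts in LPS/INF, against 4373 counts in M0, and was 93.9-fold lower (95% interval 70.5 to 128). H2-Eb1, another class II chain, had 64 counts in LPS/INF and 3279 counts in M0 (51.7-fold lower). Cd74, the invariant chain, stood at 944 counts in LPS/INF, against 27636 counts in M0 (29.5-fold lower, 95% interval 27.7 to 31.5). Ciita, the activator of these genes, had 25 counts in LPS/INF, against 545 counts in M0, and was 22-fold lower (95% interval 14.7 to 34.3), so the activator and its targets were on the same side. H2-Ab1, the partner of H2-Aa, had 5272 counts in LPS/INF and 5426 counts in M0 (1.04-fold lower). H2-Aa had 276 counts in LPS/INF with G-1, against 124 counts in M0 with G-1, and Cd74 had 1912 counts in LPS/INF with G-1, against 764 counts in M0 with G-1. The direction of these class II genes therefore differed between the pairs, a difference that was not tested, and with G-1 the list had 6 of 15 measured members higher by 2-fold or more and 0 lower by as much, with a median log2 fold of 0.57.

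Of 31 costimulatory, adhesion and checkpoint genes, 26 were measured, 16 of them at least 2-fold higher in LPS/INF and 5 at least 2-fold lower, with a median log2 fold of 1.48. Cd40, the receptor of T cell help, stood at 1954 counts in LPS/INF, against 326 counts in M0 (5.94-fold higher). Cd274, the checkpoint ligand PD-L1, had 28938 counts in LPS/INF, against 2137 counts in M0, and was 13.4-fold higher (95% interval 12.8 to 14.0). Cd80, a ligand of CD28, had 1151 counts in LPS/INF and 498 counts in M0 (2.29-fold higher), and Cd86, another CD28 ligand, stood at 3563 counts in LPS/INF, against 2116 counts in M0 (1.67-fold higher, 95% interval 1.58 to 1.76). Stimulating and inhibitory ligands were both among the higher genes. Slamf7, a homotypic receptor, had 30883 counts in LPS/INF, against 2370 counts in M0, and was 12.9-fold higher, and Icam1, the ligand of LFA-1, had 12954 counts in LPS/INF and 4182 counts in M0 (3.07-fold higher). Vsir, the checkpoint VISTA, stood at 10768 counts in LPS/INF, against 47459 counts in M0 (4.45-fold lower). Ido1, often taken as an INF-γ gene, had 5 counts in LPS/INF and 2 counts in M0 and was not measured.

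The genes of nitric oxide, arginine and itaconate metabolism had 20 of 22 measured, with 12 at least 2-fold higher in LPS/INF, 2 at least 2-fold lower and a median log2 fold of 1.68. Acod1, which makes itaconate, had 187166 counts in LPS/INF, against 162 counts in M0, and was 1145-fold higher (95% interval 982 to 1344). Slc7a2, the inducible arginine carrier, had 111822 counts in LPS/INF and 230 counts in M0 (482-fold higher, 95% interval 423 to 551). Ass1, which rebuilds arginine from citrulline, stood at 6720 counts in LPS/INF, against 48 counts in M0 (139-fold higher). Gch1, the first enzyme of the Nos2 cofactor tetrahydrobiopterin, had 3985 counts in LPS/INF, against 638 counts in M0, and was 6.19-fold higher. Pts, the next enzyme of that cofactor, had 281 counts in LPS/INF and 747 counts in M0 (2.68-fold lower), so the cofactor genes did not share a direction. Arg1, the arginase that competes with Nos2 for arginine, stood at 2569 counts in LPS/INF, against 1 count in M0 (2547-fold higher, 95% interval 457 to 100628). Sat1, which breaks down polyamines, had 4326 counts in LPS/INF, against 16054 counts in M0, and was 3.74-fold lower.

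Among NADPH oxidase and peroxide genes, 13 of 20 were measured, and 3 of those were at least 2-fold higher in LPS/INF and 1 at least 2-fold lower (median log2 fold 0.30). Cybb, the catalytic gp91phox, had 219240 counts in LPS/INF and 47267 counts in M0 (4.60-fold higher, 95% interval 4.55 to 4.64). Ncf1, the oxidase subunit p47phox, stood at 22115 counts in LPS/INF, against 17827 counts in M0 (1.23-fold higher). Among subunits of the oxidase the catalytic one and Rac2 passed 2-fold. Sod2, the mitochondrial superoxide dismutase, had 62357 counts in LPS/INF, against 2898 counts in M0, and was 21.3-fold higher, and Cat, catalase, had 13482 counts in LPS/INF and 28030 counts in M0 (2.10-fold lower). Of 22 genes of prostaglandin and leukotriene synthesis, 17 were measured, 5 of them at least 2-fold higher in LPS/INF and 7 at least 2-fold lower, with a median log2 fold of -0.77. Ptgs2, the inducible cyclooxygenase, stood at 70450 counts in LPS/INF, against 26 counts in M0 (2686-fold higher, 95% interval 1833 to 4112). Ptges, the inducible prostaglandin E synthase, had 42329 counts in LPS/INF, against 44 counts in M0, and was 954-fold higher (95% interval 710.3 to 1313). Ptgs1, the constitutive cyclooxygenase, had 396 counts in LPS/INF and 5456 counts in M0 (13.9-fold lower). Of the genes that make prostaglandin E2, Ptgs2 and Ptges were thus higher and Ptgs1 lower, as was Hpgd. Alox5, the first enzyme of leukotriene synthesis, stood at 50 counts in LPS/INF, against 799 counts in M0 (16.1-fold lower), and Ltc4s, which makes leukotriene C4, had 44 counts in LPS/INF, against 543 counts in M0, and was 12.4-fold lower.

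The inflammasome and pyroptosis genes had 23 of 26 measured, with 5 at least 2-fold higher in LPS/INF, 5 at least 2-fold lower and a median log2 fold of 0.27. These were 21.7% of the list in each direction, beside 16.8% higher and 17.4% lower of all measured genes. Nlrp3, the sensor primed by LPS, had 15269 counts in LPS/INF and 3976 counts in M0 (3.81-fold higher, 95% interval 3.68 to 3.94). Casp1, the protease of the inflammasome, stood at 2992 counts in LPS/INF, against 2082 counts in M0 (1.42-fold higher), and Gsdmd, the pore protein, had 3883 counts in LPS/INF, against 3005 counts in M0, and was 1.28-fold higher. Il18, another caspase-1 substrate, had 268 counts in LPS/INF and 288 counts in M0 (1.08-fold lower), so of both caspase-1 cytokines Il1b alone was past 2-fold. P2rx7, the ATP channel that triggers NLRP3, stood at 1558 counts in LPS/INF, against 7174 counts in M0 (4.64-fold lower), and Pycard, the adaptor ASC, had 752 counts in LPS/INF, against 1728 counts in M0, and was 2.32-fold lower.

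Among acute phase and antimicrobial proteins, 24 of 29 were measured, and 16 of those were at least 2-fold higher in LPS/INF and 6 at least 2-fold lower (median log2 fold 2.92). Saa3, the serum amyloid A of macrophages, had 850307 counts in LPS/INF and 306 counts in M0 (2755-fold higher, 95% interval 2463 to 3091), at 22858 TPM in LPS/INF, against 9.10 TPM in M0. Lcn2, which binds bacterial iron carriers, stood at 127843 counts in LPS/INF, against 16 counts in M0 (7921-fold higher, 95% interval 4877 to 13858). Slpi, a protease inhibitor, had 46788 counts in LPS/INF, against 40 counts in M0, and was 1160-fold higher. By TPM, Saa3 stood at rank 3 in the LPS/INF library. Hp, haptoglobin, had 25808 counts in LPS/INF and 76 counts in M0 (337-fold higher). Lyz2, the macrophage lysozyme, stood at 232983 counts in LPS/INF, against 954912 counts in M0 (4.13-fold lower, 95% interval 4.12 to 4.15), and its reads may be shared with its close copy Lyz1. Of 33 complement genes, 22 were measured, 6 of them at least 2-fold higher in LPS/INF and 9 at least 2-fold lower, with a median log2 fold of -0.48. Cfb, factor B of the alternative pathway, had 119599 counts in LPS/INF, against 350 counts in M0, and was 339-fold higher (95% interval 305 to 377). C3, the central complement component, had 46218 counts in LPS/INF and 7847 counts in M0 (5.84-fold higher). C1qb, a chain of C1q, stood at 2824 counts in LPS/INF, against 96694 counts in M0 (34.5-fold lower). Cfb and C3 were thus higher and C1qb lower.

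**Figure D3:**
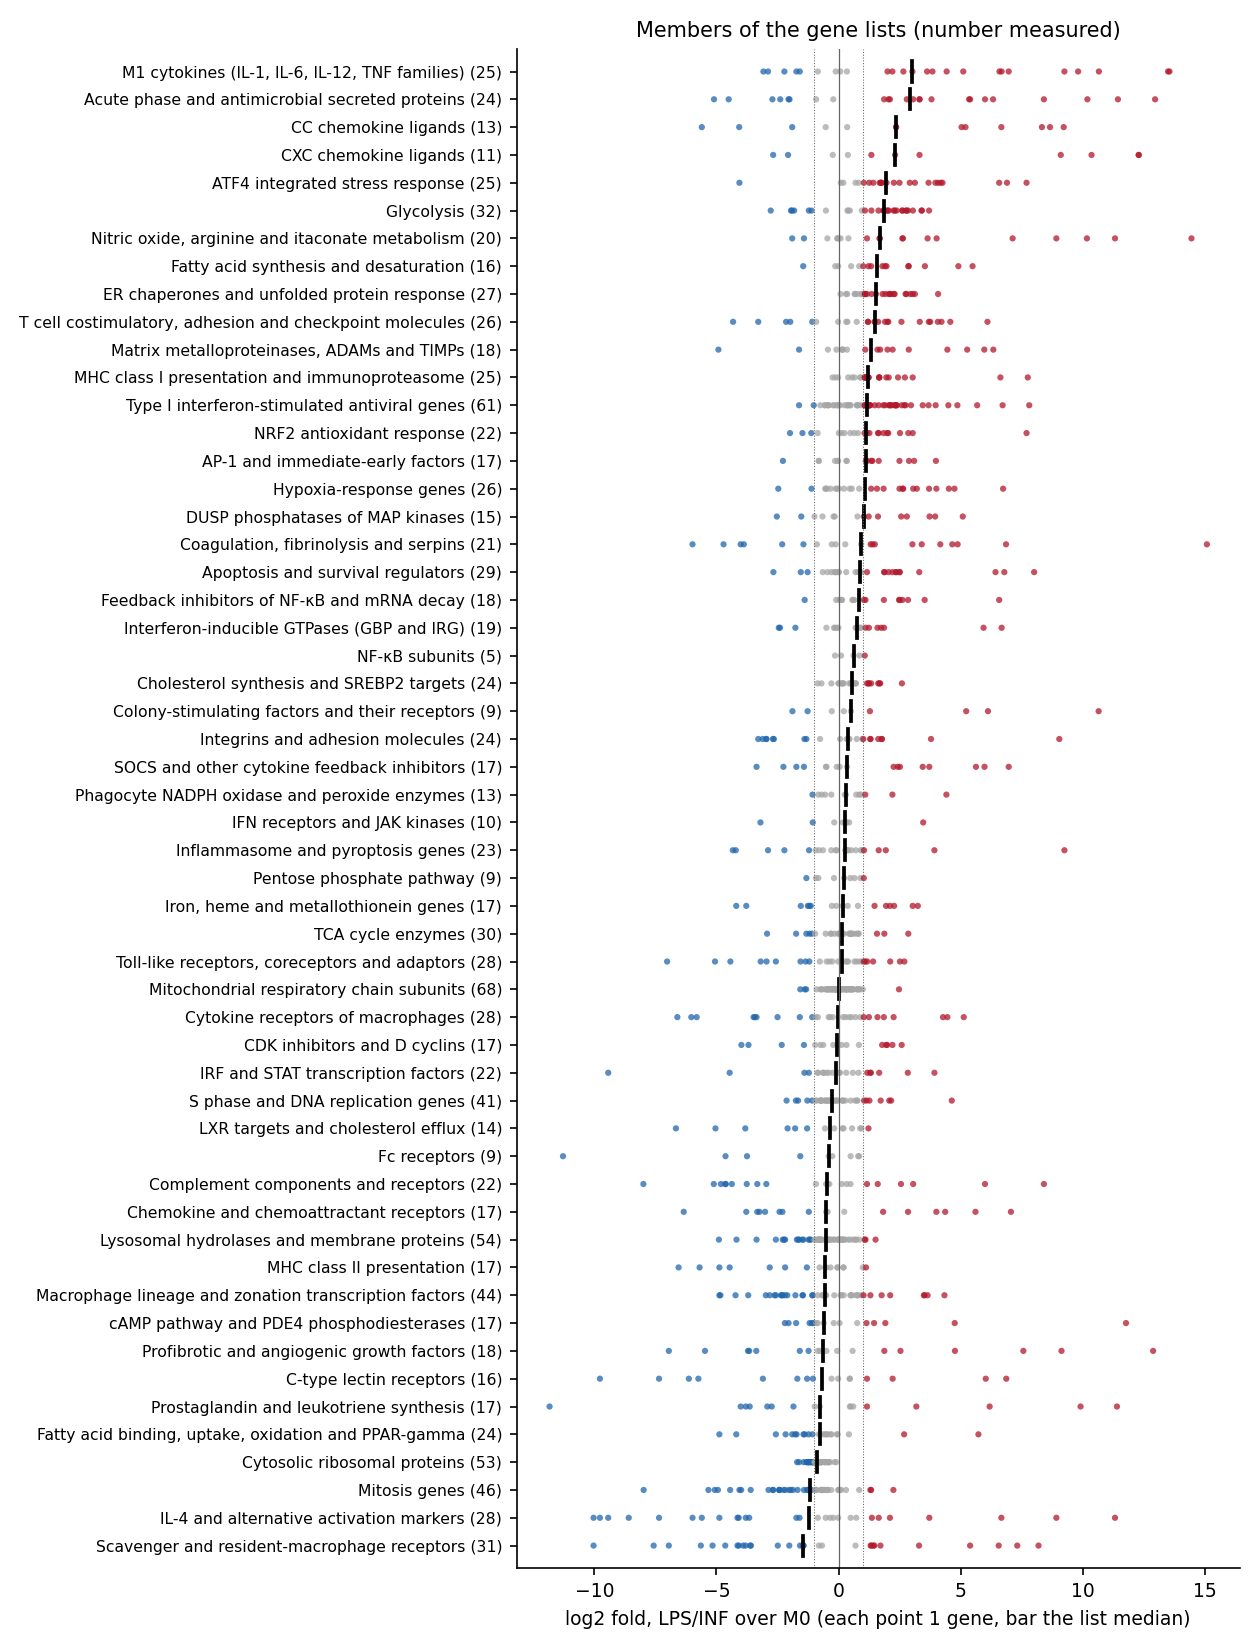
Log2 fold (LPS/INF over M0) of each measured member of the pathway lists with at least 5 measured members, 1 row a list, with a bar at the median. Medians of these lists run from 3.02 for cytokines of the IL-1, IL-6, IL-12 and TNF families at one end to -1.46 for scavenger and resident-macrophage receptors at the other, and the respiratory chain sits at 0.01.

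The scavenger and resident-macrophage receptors had 31 of 41 measured, with 10 at least 2-fold higher in LPS/INF, 18 at least 2-fold lower and a median log2 fold of -1.46. Gas6, the bridge from dying cells to MERTK, had 300 counts in LPS/INF, against 36846 counts in M0, and was 124-fold lower (95% interval 111 to 139). Stab1, a scavenger receptor, had 8213 counts in LPS/INF and 143318 counts in M0 (17.6-fold lower). Trem2, a lipid receptor, stood at 1330 counts in LPS/INF, against 18516 counts in M0 (14.0-fold lower). Gas6, Stab1 and Trem2 were all lower. Mertk, a receptor for dying cells, had 2246 counts in LPS/INF, against 6671 counts in M0, and was 3.0-fold lower, and Axl, its relative, had 339 counts in LPS/INF and 1891 counts in M0 (5.63-fold lower). Marco, a scavenger receptor of bacteria, stood at 82635 counts in LPS/INF, against 1969 counts in M0 (41.6-fold higher, 95% interval 39.8 to 43.5). Olr1, the receptor of oxidised LDL, had 586 counts in LPS/INF, against 2 counts in M0, and was 290.5-fold higher (95% interval 80.0 to 2404), and Trem1, an amplifier of inflammation, had 1225 counts in LPS/INF and 13 counts in M0 (93.4-fold higher). Marco, Olr1 and Trem1 were thus on the other side from Stab1 and Trem2. Among C-type lectins, 16 of 23 were measured, and 4 of those were at least 2-fold higher in LPS/INF and 8 at least 2-fold lower (median log2 fold -0.67). Clec4e, the receptor Mincle, stood at 198567 counts in LPS/INF, against 3043 counts in M0 (64.7-fold higher, 95% interval 62.4 to 67.1), and Clec10a, a galactose lectin, had 5 counts in LPS/INF, against 4338 counts in M0, and was 875-fold lower. Of 11 Fc receptors, 9 were measured, 0 of them at least 2-fold higher in LPS/INF and 4 at least 2-fold lower, with a median log2 fold of -0.41. Fcgrt, the neonatal Fc receptor, had 774 counts in LPS/INF and 18965 counts in M0 (24.7-fold lower), and Fcgr1, the high-affinity IgG receptor, stood at 12308 counts in LPS/INF, against 6807 counts in M0 (1.79-fold higher).

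The markers of alternative activation had 28 of 39 measured, with 7 at least 2-fold higher in LPS/INF, 14 at least 2-fold lower and a median log2 fold of -1.22, which was -3.66 at a minimum of 100 counts. Mrc1 and Clec10a had the largest lower folds of the list. F13a1, a coagulation transglutaminase of these cells, had 879 counts in LPS/INF, against 55087 counts in M0, and was 63.2-fold lower. Igf1, a growth factor, had 2707 counts in LPS/INF and 34001 counts in M0 (12.7-fold lower), and Pparg, a regulator of lipid genes, stood at 20 counts in LPS/INF, against 584 counts in M0 (29.5-fold lower). Arg1 and Slc7a2 went the other way from Mrc1, as did Ccl22, which had 102 counts in LPS/INF, against 1 count in M0, and was 101-fold higher (95% interval 17.7 to 4032). Retnla and Ccl17 had 0 counts in both. Among macrophage lineage factors, 44 of 45 were measured, and 8 of those were at least 2-fold higher in LPS/INF and 18 at least 2-fold lower (median log2 fold -0.57). Spi1, the master factor PU.1, had 10737 counts in LPS/INF and 16978 counts in M0 (1.60-fold lower). Maf, a factor of resident macrophages, stood at 2370 counts in LPS/INF, against 30468 counts in M0 (13-fold lower). Mef2c, a myeloid factor, had 205 counts in LPS/INF, against 5819 counts in M0, and was 28.6-fold lower, and Cebpa, a factor of myeloid commitment, had 1816 counts in LPS/INF and 8859 counts in M0 (4.92-fold lower). The factor Cebpb, an inducer of Il6, stood at 29728 counts in LPS/INF, against 8673 counts in M0 (3.40-fold higher), and Bhlhe40, a repressor of Il10, had 3078 counts in LPS/INF, against 267 counts in M0, and was 11.4-fold higher.

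Of 33 genes of glycolysis, 32 were measured, 21 of them at least 2-fold higher in LPS/INF and 6 at least 2-fold lower, with a median log2 fold of 1.85. Slc2a1, the glucose carrier GLUT1, had 17678 counts in LPS/INF and 1353 counts in M0 (13-fold higher, 95% interval 12.3 to 13.7). Pfkfb3, which drives phosphofructokinase, stood at 14488 counts in LPS/INF, against 2375 counts in M0 (6.05-fold higher). Ldha, which makes lactate, had 77665 counts in LPS/INF, against 12613 counts in M0, and was 6.10-fold higher. Slc16a3, the lactate exporter MCT4, had 19844 counts in LPS/INF and 1880 counts in M0 (10.5-fold higher). The carriers at glucose entry and lactate exit were both on the higher side. Pfkm, Ldhb, Slc2a3, Pfkfb4, Pdk2 and Pdk3 were the members at least 2-fold lower, among them isoforms of genes that were higher. In the pair with G-1 this list had 13 of 32 measured members higher by 2-fold or more and 4 lower by as much, with a median log2 fold of 0.51. The hypoxia-response genes had 26 of 29 measured, with 13 at least 2-fold higher in LPS/INF, 2 at least 2-fold lower and a median log2 fold of 1.08. Hif1a itself stood at 12216 counts in LPS/INF, against 8304 counts in M0 (1.46-fold higher), and Egln3, its oxygen sensor and target, had 1321 counts in LPS/INF, against 49 counts in M0, and was 26.7-fold higher. Vegfa, an angiogenic target of HIF-1, had 2936 counts in LPS/INF and 3044 counts in M0 (1.05-fold lower).

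Among TCA cycle enzymes, 30 of 30 were measured, and 3 of those were at least 2-fold higher in LPS/INF and 5 at least 2-fold lower (median log2 fold 0.14). These were 10% and 16.7% of the list, beside 16.8% and 17.4% of all measured genes. Fh1, fumarase, stood at 815 counts in LPS/INF, against 6161 counts in M0 (7.63-fold lower, 95% interval 7.09 to 8.21). Idh1, the cytosolic isocitrate dehydrogenase, had 4693 counts in LPS/INF, against 15519 counts in M0, and was 3.34-fold lower. Sdha, the flavoprotein of succinate dehydrogenase that itaconate inhibits, had 6691 counts in LPS/INF and 9553 counts in M0 (1.44-fold lower). Mdh2, mitochondrial malate dehydrogenase, stood at 9771 counts in LPS/INF, against 3272 counts in M0 (2.96-fold higher). Of 68 respiratory chain subunits, 68 were measured, 1 of them at least 2-fold higher in LPS/INF and 3 at least 2-fold lower, with a median log2 fold of 0.01. Cycs, cytochrome c, was the member on the higher side and had 2948 counts in LPS/INF, against 529 counts in M0, and was 5.52-fold higher. With G-1 the respiratory chain had 44 of 68 measured members higher by 2-fold or more and 0 lower by as much, with a median log2 fold of 1.12.

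The genes of fatty acid synthesis had 16 of 19 measured, with 11 at least 2-fold higher in LPS/INF, 1 at least 2-fold lower and a median log2 fold of 1.56. Acsl1, an acyl-CoA synthetase, had 60885 counts in LPS/INF and 1355 counts in M0 (44.5-fold higher, 95% interval 42.2 to 47.0). Scd2, a desaturase, stood at 17612 counts in LPS/INF, against 583 counts in M0 (29.9-fold higher), though Scd1 and Scd2 are close copies. Fasn, fatty acid synthase, had 5376 counts in LPS/INF, against 2127 counts in M0, and was 2.51-fold higher. Most measured genes that build fatty acids were thus past 2-fold on the higher side. Among genes of fatty acid uptake and oxidation, 24 of 26 were measured, and 2 of those were at least 2-fold higher in LPS/INF and 11 at least 2-fold lower (median log2 fold -0.78). Cpt1a, the gate of mitochondrial oxidation, had 3224 counts in LPS/INF and 8398 counts in M0 (2.63-fold lower). Lipa, the lysosomal acid lipase, stood at 8088 counts in LPS/INF, against 47558 counts in M0 (5.93-fold lower). Of 16 genes of cholesterol efflux and LXR targets, 14 were measured, 1 of them at least 2-fold higher in LPS/INF and 6 at least 2-fold lower, with a median log2 fold of -0.37. Apoe, the apolipoprotein of efflux, had 21561 counts in LPS/INF, against 703566 counts in M0, and was 32.9-fold lower (95% interval 32.5 to 33.4), and stood at 906 TPM in LPS/INF, against 32707 TPM in M0. Pltp, a phospholipid transfer protein, had 424 counts in LPS/INF and 42531 counts in M0 (101-fold lower), whereas Abca1, the cholesterol exporter, stood at 47964 counts in LPS/INF, against 25781 counts in M0 (1.84-fold higher). The genes of cholesterol synthesis had 24 of 25 measured, with 8 at least 2-fold higher in LPS/INF, 0 at least 2-fold lower and a median log2 fold of 0.53. Fdps, which makes farnesyl diphosphate, had 2233 counts in LPS/INF, against 720 counts in M0, and was 3.07-fold higher. In the pair with G-1 these cholesterol genes had 0 of 24 measured members higher by 2-fold or more and 8 lower by as much, with a median log2 fold of -0.73.

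Among ER chaperones and unfolded protein response genes, 27 of 28 were measured, and 19 of those were at least 2-fold higher in LPS/INF and 0 at least 2-fold lower (median log2 fold 1.53). Hspa5, the chaperone BiP, had 200352 counts in LPS/INF and 25811 counts in M0 (7.69-fold higher, 95% interval 7.60 to 7.80). Hyou1, an ER chaperone, stood at 31216 counts in LPS/INF, against 3783 counts in M0 (8.18-fold higher), and Manf, a secreted ER stress protein, had 15111 counts in LPS/INF, against 2197 counts in M0, and was 6.82-fold higher. Hspa5, Hyou1 and Manf were thus on the same side. Of 26 genes of the ATF4 stress response, 25 were measured, 20 of them at least 2-fold higher in LPS/INF and 1 at least 2-fold lower, with a median log2 fold of 1.96. Slc7a11, the cystine carrier, had 33691 counts in LPS/INF and 162 counts in M0 (206-fold higher, 95% interval 177 to 242). Asns, asparagine synthetase, stood at 2896 counts in LPS/INF, against 185 counts in M0 (15.5-fold higher), and Atf4, the factor itself, had 15654 counts in LPS/INF, against 2761 counts in M0, and was 5.62-fold higher. Ddit3, the factor CHOP, had 7665 counts in LPS/INF and 452 counts in M0 (16.8-fold higher), and Mthfd2, a mitochondrial folate enzyme, stood at 5443 counts in LPS/INF, against 298 counts in M0 (18.1-fold higher). Atf4 and the targets named were on the same side, with Vldlr as the member at least 2-fold lower that was measured. The NRF2 antioxidant genes had 22 of 22 measured, with 12 at least 2-fold higher in LPS/INF, 3 at least 2-fold lower and a median log2 fold of 1.11. Hmox1, which degrades heme, had 156637 counts in LPS/INF, against 19026 counts in M0, and was 8.16-fold higher (95% interval 8.04 to 8.29), whereas Nfe2l2, the gene of NRF2, had 5739 counts in LPS/INF and 15860 counts in M0 (2.79-fold lower).

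Among iron, heme and metallothionein genes, 17 of 20 were measured, and 6 of those were at least 2-fold higher in LPS/INF and 6 at least 2-fold lower (median log2 fold 0.17). Fth1, the ferritin heavy chain, stood at 1811274 counts in LPS/INF, against 467283 counts in M0 (3.84-fold higher, 95% interval 3.83 to 3.85), at 71699 TPM in LPS/INF, against 20473 TPM in M0. Slc40a1, the iron exporter ferroportin, had 1340 counts in LPS/INF, against 24324 counts in M0, and was 18.3-fold lower (95% interval 17.3 to 19.4). Tfrc, the transferrin receptor, had 3996 counts in LPS/INF and 8705 counts in M0 (2.20-fold lower). The ferritin heavy chain was thus higher and the iron exporter lower. Ftl1, the ferritin light chain, had 418615 counts in LPS/INF and 443876 counts in M0. Of 54 lysosomal hydrolases and membrane proteins, 54 were measured, 3 of them at least 2-fold higher in LPS/INF and 15 at least 2-fold lower, with a median log2 fold of -0.52. Lgmn, legumain, stood at 8586 counts in LPS/INF, against 87193 counts in M0 (10.2-fold lower), Psap, the precursor of saposins, had 177321 counts in LPS/INF, against 576399 counts in M0, and was 3.28-fold lower, and Ctsd, cathepsin D, had 291248 counts in LPS/INF and 270859 counts in M0 (1.07-fold higher). Ctsz, cathepsin Z, stood at 116450 counts in LPS/INF, against 40614 counts in M0 (2.84-fold higher).

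The mitosis genes had 46 of 48 measured, with 3 at least 2-fold higher in LPS/INF, 24 at least 2-fold lower and a median log2 fold of -1.19. At a minimum of 100 counts 29 of them were measured, and 14 of those were lower. Cenpa, the centromeric histone, had 9 counts in LPS/INF, against 2249 counts in M0, and was 252-fold lower (95% interval 133 to 552). Kif23, a kinesin of cytokinesis, had 22 counts in LPS/INF and 671 counts in M0 (30.8-fold lower). Plk1, a mitotic kinase, stood at 6 counts in LPS/INF, against 99 counts in M0 (16.6-fold lower). Mki67, the proliferation antigen Ki-67, had 2608 counts in LPS/INF, against 1440 counts in M0, and was 1.8-fold higher, unlike most of the list. In the pair with G-1 the mitosis list had 1 of 48 measured members higher by 2-fold or more and 42 lower by as much, with a median log2 fold of -3.12. Among S phase genes, 41 of 41 were measured, and 7 of those were at least 2-fold higher in LPS/INF and 5 at least 2-fold lower (median log2 fold -0.27). These were 17.1% and 12.2% of the list, beside 16.8% and 17.4% of all measured genes. Pola1, a DNA polymerase subunit, had 109 counts in LPS/INF and 474 counts in M0 (4.39-fold lower), and Ccne1, cyclin E1, stood at 153 counts in LPS/INF, against 36 counts in M0 (4.21-fold higher). Of 18 CDK inhibitors and D cyclins, 17 were measured, 5 of them at least 2-fold higher in LPS/INF and 4 at least 2-fold lower, with a median log2 fold of -0.06. Ccnd1, the cyclin that M-CSF induces, had 194 counts in LPS/INF, against 966 counts in M0, and was 5.02-fold lower, and Cdkn1a, p21, had 18373 counts in LPS/INF and 10275 counts in M0 (1.77-fold higher). The cytosolic ribosomal proteins had 53 of 53 measured, with 0 at least 2-fold higher in LPS/INF, 17 at least 2-fold lower and a median log2 fold of -0.89. With total counts as the scaling 29 of them were lower. Rps21, a small-subunit protein, stood at 2535 counts in LPS/INF, against 8147 counts in M0 (3.24-fold lower), and Rpl3, a large-subunit protein, had 11428 counts in LPS/INF, against 26569 counts in M0, and was 2.35-fold lower. With G-1 the ribosomal proteins had 8 of 53 measured members higher by 2-fold or more and 0 lower by as much, with a median log2 fold of 0.69, so the medians of the pairs lay on opposite sides of 0, a difference that was not tested.

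Among matrix metalloproteinases, ADAMs and TIMPs, 18 of 24 were measured, and 10 of those were at least 2-fold higher in LPS/INF and 2 at least 2-fold lower (median log2 fold 1.34). At a minimum of 100 counts the median was 0.34. Mmp14, a membrane collagenase, had 50996 counts in LPS/INF and 1317 counts in M0 (38.4-fold higher, 95% interval 36.3 to 40.6). Mmp13, a collagenase, stood at 15729 counts in LPS/INF, against 713 counts in M0 (21.9-fold higher). Timp2, an inhibitor of these proteases, had 465 counts in LPS/INF, against 13950 counts in M0, and was 30.3-fold lower. Of 27 coagulation, fibrinolysis and serpin genes, 21 were measured, 10 of them at least 2-fold higher in LPS/INF and 6 at least 2-fold lower, with a median log2 fold of 0.92. F10, coagulation factor X, had 5327 counts in LPS/INF and 211 counts in M0 (25-fold higher), and Procr, the protein C receptor, stood at 18770 counts in LPS/INF, against 161 counts in M0 (116-fold higher). Thbd, thrombomodulin, had 50 counts in LPS/INF, against 732 counts in M0, and was 14.8-fold lower. The growth factors had 18 of 27 measured, with 6 at least 2-fold higher in LPS/INF, 7 at least 2-fold lower and a median log2 fold of -0.63. Vegfc, a lymphangiogenic factor, had 563 counts in LPS/INF and 1 count in M0 (558-fold higher, 95% interval 99.8 to 22083), and Edn1, endothelin, stood at 571 counts in LPS/INF, against 0 counts in M0 (at least 189-fold higher). The lower members included Gas6, which had the smallest fold of this list (124-fold lower). Among apoptosis and survival genes, 29 of 29 were measured, and 13 of those were at least 2-fold higher in LPS/INF and 3 at least 2-fold lower (median log2 fold 0.88). Traf1, an adaptor of TNF receptors, had 11940 counts in LPS/INF, against 108 counts in M0, and was 109.6-fold higher, and Cflar, which blocks caspase-8, had 23206 counts in LPS/INF and 4057 counts in M0 (5.67-fold higher). Of 29 integrins and adhesion genes, 24 were measured, 8 of them at least 2-fold higher in LPS/INF and 8 at least 2-fold lower, with a median log2 fold of 0.40. Itga5, the fibronectin receptor chain, stood at 33005 counts in LPS/INF, against 2387 counts in M0 (13.7-fold higher), and Itgb8, an integrin chain that activates TGF-β, had 1054 counts in LPS/INF, against 2 counts in M0, and was 522-fold higher (95% interval 144 to 4319). Both named integrins were thus from the higher side, and the 8 lower members reached a fold of 0.102. Gper1, the receptor of G-1, had 1 count in LPS/INF and 2 counts in M0.

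The pair of LPS/INF and M0 macrophages cultured with G-1 shares no library with the pair above. In it 11218 genes were measured, with 1988 (17.7%) higher in LPS/INF with G-1 by 2-fold or more and 2206 (19.7%) lower by as much. Of genes at least 2-fold higher without G-1, 894 (46.6%) were also higher with G-1, which was 45.0% of those higher there, and 133 (6.93%) were lower with G-1. For the lower genes, 940 (47.2%) were lower in both, 42.6% of those lower with G-1, and 59 (2.96%) were higher with G-1. Of the 426 genes at least 10-fold higher, 315 (73.9%) were at least 2-fold higher with G-1, and of the 388 at least 10-fold lower, 253 (65.2%) were at least 2-fold lower. Nos2 had 9422 counts in LPS/INF with G-1, against 1 count in M0 with G-1, which was 10016-fold higher (95% interval 1797 to 395665). Il1b had 44780 counts in LPS/INF with G-1, against 14 counts in M0 with G-1, which was 3400-fold higher. Acod1 had 160899 counts in LPS/INF with G-1, against 320 counts in M0 with G-1, which was 535-fold higher. Mrc1 had 74 counts in LPS/INF with G-1, against 19932 counts in M0 with G-1, which was 253-fold lower. The defining markers and Mrc1 were on the same side in both pairs. The M1 cytokine list had 20 of 22 measured members higher by 2-fold or more and 1 lower by as much, with a median log2 fold of 4.07, and the antiviral interferon-stimulated list had 53 of 60 measured members higher by 2-fold or more and 0 lower by as much, with a median log2 fold of 3.13.

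**Figure D4:**
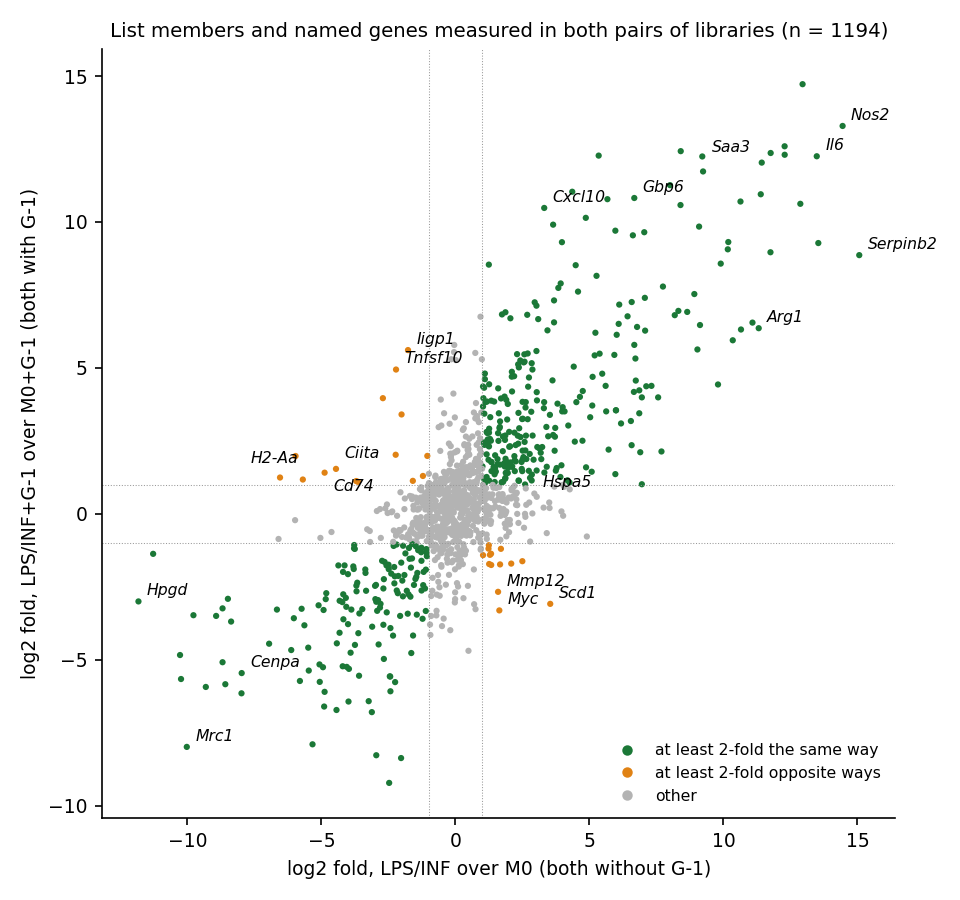
Log2 fold of LPS/INF over M0 without G-1 (x axis) against the log2 fold with G-1 (y axis) for list members and named genes measured in both pairs (n = 1194). Of these, 428 were at least 2-fold changed the same way in both pairs and 29 the opposite way. The genes drawn were chosen, some of them by their fold without G-1. Of all 10997 genes measured in both pairs, 894 were higher in both and 940 lower in both. Of the genes higher without G-1, 133 were lower with G-1, and of those lower without it, 59 were higher.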

How the data were processed

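RNA of 3 samples per group, pooled and sequenced with paired ends as 1 library, was counted per gene, and the authors deposited these counts as whole numbers for each symbol. Both mm10 and DESeq2 appear in the submitters' processing notes with no version. The aligner and the counter are not given in the sources used. Whether counting used strand is not stated, so overlapping and antisense genes are uncertain. Of 22173 symbols, 21954 matched RefSeq genes of GRCm38.p6, the source of coordinates and promoters, and 21494 had a GENCODE M21 length for TPM.

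Folds used TMM factors of edgeR 4.0.16 in R 4.3.3 within the pair, with Python 3.11.15, numpy 2.4.6, pandas 2.3.3 and scipy 1.17.1. Genes with at least 20 counts in the larger library were measured, a fold of 2 was the threshold, and a count of 0 was set to a floor of 3. Exact 95% binomial intervals cover counting error only. With 1 library a group no test between groups was possible. List medians take genes at 0 counts at their bound. The script was tested on simulated data.

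Named genes were, in each direction, the 15 largest folds at 100 counts or more, genes the paper names, the markers, up to 6 leading members per list, members of a list's minority direction, and receptors, kinases and rate-limiting enzymes. The rule offers more genes than are named, and a few others were chosen after their values were seen. Members and lists were chosen with earlier results of these data known. Alternatives were DESeq2 1.42.0 size factors, total counts, upper quartiles, count minimums, a prior count, the near bound of the interval, a removed length and GC trend and a 4-fold threshold. The libraries with G-1 were added as an alternative after the data were seen. TEC and IL4 libraries were used for levels only. Values of some members are not reported here.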

Additional observations from a re-analysis of the deposited data

Results flagged for a closer look

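The genes below were at least 2-fold higher or lower without G-1 and at least 2-fold on the opposite side in the pair with G-1 (LPS/INF with G-1 over M0 with G-1). Each pair has 1 library a side and the difference between the pairs was not tested. Lower without G-1 and higher with G-1 were the MHC class II genes Ciita (2.91-fold higher with G-1), Cd74 (2.66-fold), H2-Aa (2.37-fold) and H2-Eb1 (2.26-fold), in which the M0 library stood above M0 with G-1. The same held for Iigp1 (48.9-fold), an interferon-induced GTPase, Tnfsf10 (30.8-fold), the TRAIL gene, and Il15 (2.19-fold). It also held for Ctsf (4.07-fold), a cathepsin, Pycard (2.46-fold), the adaptor ASC, Bmp2 (2.18-fold) and Ltc4s (2.14-fold). Higher without G-1 and lower with G-1 were the growth regulators Myc (9.86-fold lower with G-1) and Bcl2 (3.07-fold), the spindle gene Hmmr (3.37-fold), and the lipid enzymes Scd1 (8.51-fold), Hsd17b7 (2.29-fold) and Lss (2.11-fold), the last pair of them in cholesterol synthesis.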

How the results depend on the processing

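No paired analysis was possible because each group has 1 library. The scalings, count minimums, prior count, near bound and trend removal gave 1565 to 2246 genes at least 2-fold higher, against 1919. They gave 1558 to 2463 at least 2-fold lower, against 1991. Count minimums keep each fold, a prior count draws folds toward 1, and a rescaling shifts all folds by a common small factor. These settings therefore could not turn the direction of a called gene. Trend removal turned no named gene that was called, and the near bound was not checked for this. At a 4-fold threshold 854 genes were higher and 838 lower, fewer by the construction of the threshold. Scaling by total counts moved the median log2 fold of all genes to -0.14, from 0.01, and 11 named calls were lost. In the libraries with G-1, 2 lists had a median log2 fold of at most -1, against 4, and the medians of 13 of 54 pathway lists with at least 5 measured members were of the opposite sign. Of medians of at least 1 or at most -1 these were the MAP kinase phosphatases (-0.22), fatty acid synthesis (-0.56) and the matrix metalloproteinases (-0.16). The widest of the rest were the ribosomal proteins (0.69, against -0.89), IRF and STAT factors (1.54, against -0.12), prostaglandin synthesis (0.87, against -0.77), C-type lectins (0.78, against -0.67), cholesterol synthesis (-0.73, against 0.53) and MHC class II (0.57, against -0.55), and the cause was not tested. With G-1, 29 of the 54 medians moved by over 1.5 times, as did counts in 27 of the 54 lists. Here and below, a median is said to move by over 1.5 times as an unlogged fold, while the medians printed are log2 folds. The ER chaperones (0.57, against 1.53) and the nitric oxide, arginine and itaconate genes (0.46, against 1.68) were among them. Under the other settings, list medians of opposite sign lay between -0.14 and 0.23. At a minimum of 100 counts, which drops members, 6 medians moved by over 1.5 times: CC ligands (5.03, against 2.35), CXC ligands (3.31, against 2.31), SOCS genes (1.29, against 0.34), acute phase proteins (3.80, against 2.92), alternative activation (-3.66, against -1.22) and the metalloproteinases (0.34, against 1.34). At a minimum of 1 count 4 did: prostaglandin synthesis (-0.15, against -0.77), acute phase proteins (2.10, against 2.92), AP-1 factors (0.33, against 1.11) and coagulation (0.27, against 0.92). Counts moved by over 1.5 times for lower ribosomal proteins (29 with total counts, against 17). At a minimum of 100 counts they moved for lower mitosis genes (14 of 29 measured, against 24 of 46). They also moved there for higher complement genes (3 of 15, against 6 of 22) and higher S phase genes (4 of 32, against 7 of 41). At the near bound, 4 S phase genes were higher. The minimum drops members, so these counts fell along with the number measured. Depth limits genes with few counts, whose intervals are wide, and pooling hides the spread between samples.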

Other observations

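The cytokine receptors had 28 of 33 measured, with 8 at least 2-fold higher in LPS/INF, 9 at least 2-fold lower and a median log2 fold of -0.03. Il1r1, the signalling receptor of IL-1, had 485 counts in LPS/INF and 25 counts in M0 (19.2-fold higher), and Il1r2, its decoy, stood at 6 counts in LPS/INF, against 61 counts in M0 (10.3-fold lower). Il6ra, the IL-6 receptor, had 451 counts in LPS/INF, against 4973 counts in M0, and was 11.1-fold lower, and Il10ra, a chain of the IL-10 receptor, had 3433 counts in LPS/INF and 10268 counts in M0 (3.02-fold lower). Tgfbr2, the receptor of TGF-β, stood at 2666 counts in LPS/INF, against 14944 counts in M0 (5.65-fold lower), and Tnfrsf1b, the TNF receptor TNFR2, had 137062 counts in LPS/INF, against 28619 counts in M0, and was 4.75-fold higher. Among cAMP pathway genes, 17 of 18 were measured, and 5 of those were at least 2-fold higher in LPS/INF and 6 at least 2-fold lower (median log2 fold -0.61). Adora2b, an adenosine receptor, had 2334 counts in LPS/INF and 86 counts in M0 (26.9-fold higher), and Ptger4, the prostaglandin receptor EP4, stood at 250 counts in LPS/INF, against 829 counts in M0 (3.35-fold lower). Of 10 pentose phosphate genes, 9 were measured, 1 of them at least 2-fold higher in LPS/INF and 1 at least 2-fold lower, with a median log2 fold of 0.23. The steroid receptors, their targets and Gper1 had 4 of 9 measured, with 0 at least 2-fold higher in LPS/INF, 2 at least 2-fold lower and a median log2 fold of -1.29. Tsc22d3, the glucocorticoid target GILZ, had 910 counts in LPS/INF, against 4168 counts in M0, and was 4.62-fold lower, and Esr1, the estrogen receptor α, had 73 counts in LPS/INF and 227 counts in M0 (3.14-fold lower).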
